A study of Mus musculus with 12 samples.

Results

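The 7 genes *Lcn2*, *Saa3*, *Chil1*, *A2m*, *Ptx3*, *Hp* and *Agt* encode secreted acute-phase proteins or products of reactive glia. They are 7 of 56860 named genes in the count table, and all 7 were among the 16600 genes that passed the filter on low counts. They were taken by symbol and were chosen by their lower counts in siEgr2 than in siNC in these same libraries, so their differences between the groups are described with an SE and without a p-value, and nothing is supported with them.

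RNA was sequenced in bulk from primary mouse oligodendrocytes (OLs), the myelinating glia of the brain, to learn which transcripts change when the transcription factor Egr2 is interfered with. Both groups were C57BL/6J cells, labelled as medial prefrontal cortex, whereas the methods of the study describe O4-positive immature cells from newborn cortex that were grown with PDGF-AA and then differentiated with insulin, triiodothyronine and ciliary neurotrophic factor. The siEgr2 group (6 libraries) received Egr2 interference and the siNC group (6 libraries) a negative control, and all cells were collected after 48 h. Nothing says that the 6 replicates came from separate cultures, so p-values measure the spread between these libraries, which may be technical. Libraries were also alike in pairs, siEgr2 replicates 1 and 2, 3 and 5, and 4 and 6, and siNC replicates 1 and 5, and 3 and 6: deviations from the group mean over 12400 genes correlated at 0.0052 to 0.17 within a pair and at −0.082 or lower otherwise. Such deviations correlate below 0 even between independent libraries, because each library is part of its group mean. All p-values take the libraries as independent and, with libraries alike in pairs, may be too small. With these pairs merged into 4 siNC and 3 siEgr2 units, a choice made after seeing the data, the log2 fold changes of the 7 genes ran from −3.78 for *Saa3* to −0.84 for *A2m*.

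The total count was 28682946 to 39383014 in siNC and 8034251 to 16683677 in siEgr2. The ribosomal transcript *Rn18s-rs5* took 0.142% to 1.05% of the counts in siNC and 10.5% to 16.5% in siEgr2. Levels are given as CPM (counts per 1000000 counts), with library sizes corrected by the trimmed mean of M values (TMM), which centres the bulk of genes: the log2 fold changes of all 16600 genes had a median of 0.00, against −0.18 with scaling by the total alone. Library siNC replicate 2 stood apart from its group for several genes, among them the neuronal gene *Map2* (523 CPM, where the other 5 replicates had 251 to 277 CPM), and the fold changes of the 7 genes without it are given with their comparison below. The part of depth and of ribosomal RNA in the differences was not tested. With every library thinned to 8034251 counts the log2 fold changes of the 6 genes that passed the filter ran from −3.73 for *Saa3* to −0.81 for *A2m*, and with structural RNA left out all 7 ran from −3.74 to −0.81.

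The targeted gene *Egr2* was at 3.89 to 7.06 CPM in siNC (median 5.19) and at 2.22 to 4.86 CPM in siEgr2 (median 3.93). The groups overlapped, with 3 of 6 siEgr2 libraries inside the siNC range. The log2 fold change was −0.51 ± 0.21 (SE, n = 6 per group) and was not called by edgeR's quasi-likelihood test (adjusted p = 0.0981). With scaling by the total alone it was −0.70 and called (adjusted p = 0.0144).

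Acute-phase proteins are best known as products of the liver whose synthesis is driven by interleukin 6 and interleukin 1 through STAT3, C/EBP and NF-κB factors. In the brain, reactive astrocytes make several of them, and *Lcn2* and *Ptx3* belong to the panels by which reactive states are described. The proteins leave the cell and bind iron carriers, haemoglobin, lipids, microbial surfaces or proteases, or are cut into peptide hormones.

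A gene was called where its adjusted p was below 0.05 and its log2 fold change lay beyond 0.5 in either direction. All 7 genes were among the 1281 genes called (7.72% of 16600), and all 7 among the 844 called lower in siEgr2 (5.08%), while 437 genes were called higher (2.63%). With alike libraries merged 6 of the 7 were called, and *Hp*, at a log2 fold change of −2.15 ± 0.61, was not. In 5 of the 7 every siEgr2 library lay below every siNC library, as it did in 1162 of the 16600 genes tested (7.0%). Since this contrast chose the genes, nothing is read from these counts. In bulk RNA, fewer cells of a type and less RNA per cell cannot be told apart.

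**Figure D1:**
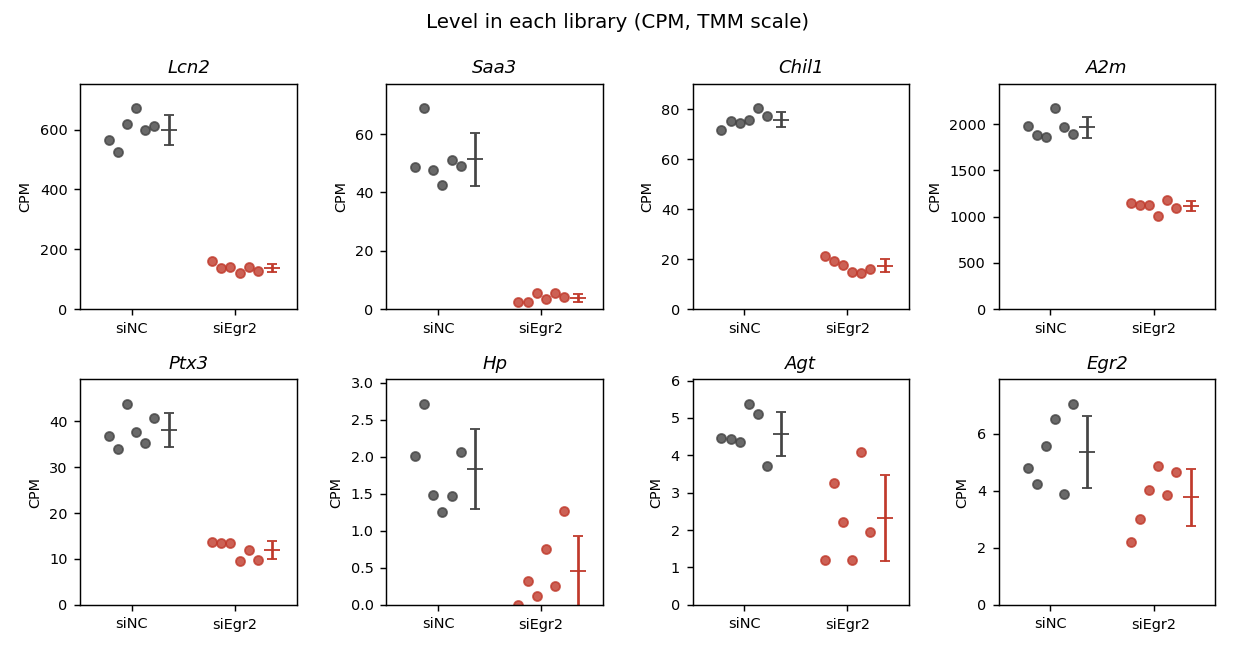
Level of each of the 7 genes and of *Egr2* in every library, in CPM on a linear axis from 0, with 6 points per group and the mean with its SD beside them (the lower bar of *Hp* in siEgr2 is truncated at 0). The groups are separate for *Lcn2*, *Saa3*, *Chil1*, *A2m* and *Ptx3* and overlap for *Hp*, *Agt* and *Egr2*.

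Binders of iron carriers and haemoglobin came first. *Lcn2* encodes lipocalin 2, which sequesters bacterial siderophores and so withholds iron. It was at 524 to 673 CPM in siNC (median 606) and at 120 to 160 CPM in siEgr2 (median 139). The groups did not overlap, and the lowest siNC library was replicate 2 and the lowest siEgr2 library replicate 4. The mean was 599 ± 50.7 CPM in siNC and 138 ± 13.6 CPM in siEgr2 (SD, n = 6 each), a log2 fold change of −2.12 ± 0.07 (SE), or 4.35-fold lower. The counts behind these levels were 17158 to 25593 in siNC and 1091 to 2379 in siEgr2. Counting error alone would give a coefficient of variation of 2.41% in siEgr2, where 9.90% was measured.

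*Hp* encodes haptoglobin, which captures free haemoglobin for uptake. It passed the filter only through siNC, where 6 of 6 libraries exceeded the limit of 0.441 CPM, against 2 of 6 in siEgr2, so that a tested *Hp* had to be higher in siNC. It was at 1.26 to 2.72 CPM in siNC (median 1.74) and at 0 to 1.27 CPM in siEgr2 (median 0.291). The groups overlapped by a single pair of libraries, siEgr2 replicate 6 lying just above the lowest siNC library, replicate 4. The log2 fold change was −2.07 ± 0.53, and without siEgr2 replicate 6 it was −2.67 ± 0.53. These levels rest on 43 to 89 counts in siNC and 0 to 13 counts in siEgr2, and the coefficient of variation in siEgr2 was 104%, against 44.7% from counting error.

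*Saa3* encodes serum amyloid A3, a lipid-binding apolipoprotein made outside the liver during inflammation. It was at 42.7 to 69.0 CPM in siNC (median 48.8) and at 2.35 to 5.63 CPM in siEgr2 (median 3.77). The groups did not overlap, and siNC replicate 2 was the high library, the other 5 lying at 42.7 to 51.1 CPM. The log2 fold change was −3.75 ± 0.21, or 13.4-fold lower, and −3.64 ± 0.19 without siNC replicate 2. In siEgr2 *Saa3* had 29 to 88 counts, and its coefficient of variation of 37.1% compared with 14.6% from counting error.

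The other serum amyloid genes lie beside *Saa3* on chromosome 7 and are close in sequence, so the division of reads among them is uncertain. *Saa1*, *Saa2* and *Saa4* did not pass the filter. *Saa1* had 115 counts over the siNC libraries and *Saa4* had 156, and both had 0 in all 6 siEgr2 libraries. Against a floor of 3 counts over the siEgr2 group, *Saa1* was at least 14.0-fold lower and *Saa4* at least 19.0-fold lower, limits that cover counting error only. *Saa2* had 60 counts in siNC and 9 in siEgr2, the latter from 2 libraries. These are raw counts, not corrected for the lower totals of siEgr2.

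Among pattern recognition proteins and lectins, *Ptx3* encodes the long pentraxin 3, which binds microbial surfaces and complement C1q. It was at 34.0 to 43.9 CPM in siNC (median 37.2) and at 9.49 to 13.6 CPM in siEgr2 (median 12.7). The groups did not overlap, with siNC replicate 3 the highest library and siEgr2 replicates 4 and 6 the lowest. *Ptx3* had a log2 fold change of −1.66 ± 0.10, or 3.17-fold lower. It had 1081 to 1704 counts in siNC and 94 to 219 in siEgr2.

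*Chil1* encodes chitinase-like 1, also called YKL-40, which binds chitin without cleaving it and is released by reactive astrocytes. It was at 71.5 to 80.5 CPM in siNC (median 75.5) and at 14.6 to 21.4 CPM in siEgr2 (median 17.0). The groups did not overlap, and siNC varied little, with a coefficient of variation of 3.98% against 15.2% in siEgr2. On the log2 scale the fold change was −2.12 ± 0.08, or 4.36-fold lower, and 2308 to 3225 counts in siNC and 114 to 318 in siEgr2 stood behind it.

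A pair of genes relates to protease control. *A2m* encodes alpha-2-macroglobulin, which traps proteases of all classes. It was at 1867 to 2178 CPM in siNC (median 1936) and at 1012 to 1175 CPM in siEgr2 (median 1128). The groups did not overlap, with siNC replicate 4 the highest library and siEgr2 replicate 4 the lowest. Expressed as log2, the fold change was −0.82 ± 0.04, or 1.76-fold lower, on 57923 to 79251 counts in siNC and 9179 to 18247 in siEgr2. Its relative *Pzp* had 6 counts in siNC and 12 in siEgr2, not corrected for the lower totals of siEgr2, and was not tested.

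*Agt* encodes angiotensinogen, a serpin without inhibitory function that renin cuts to start the angiotensin pathway and that astrocytes make in the brain. It was at 3.71 to 5.39 CPM in siNC (median 4.45) and at 1.20 to 4.10 CPM in siEgr2 (median 2.09). The groups overlapped, siEgr2 replicate 5 lying above siNC replicate 6 and the other 5 siEgr2 libraries below the siNC range. This made a log2 fold change of −1.01 ± 0.26, on 135 to 184 counts in siNC and 16 to 40 in siEgr2. The coefficient of variation in siEgr2 was 49.8%, against 19.2% from counting error.

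Levels were compared between genes per kilobase of merged exon. In siNC the order was *A2m* (280 ± 16.4 CPM per kb), *Lcn2* (228 ± 19.3), *Chil1* (27.0 ± 1.08), *Saa3* (19.7 ± 3.49), *Ptx3* (14.2 ± 1.36), *Agt* (2.42 ± 0.31) and *Hp* (1.14 ± 0.33; SD, n = 6 each). The ranges of *Chil1* and *Saa3* overlapped, through the *Saa3* level of siNC replicate 2 alone, and no other neighbours in that order overlapped. In siEgr2 the order was *A2m* (159 ± 8.11 CPM per kb), *Lcn2* (52.5 ± 5.20), *Chil1* (6.17 ± 0.94), *Ptx3* (4.47 ± 0.72), *Saa3* (1.49 ± 0.55), *Agt* (1.23 ± 0.61) and *Hp* (0.28 ± 0.29), where *Saa3* overlapped with *Agt* and *Agt* with *Hp*. *Saa3* thus stood above *Ptx3* in siNC and below it in siEgr2. Without siNC replicate 2, the log2 fold changes were −3.64 for *Saa3*, −2.15 for *Lcn2*, −2.12 for *Chil1*, −1.92 for *Hp*, −1.69 for *Ptx3*, −1.02 for *Agt* and −0.83 for *A2m*. The summed level of the 7 genes was 2596 to 3013 CPM in siNC and 1162 to 1352 CPM in siEgr2, and *A2m* made up 70.2% to 73.2% of that sum in siNC and 85.3% to 87.2% in siEgr2.

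Variation inside a group was looked at with the group means removed, and so without the difference that chose the genes. *Hp* is in part an exception. It passed the filter only through siNC, and its 0 to 13 counts in siEgr2 bear on all its pairs. Deviations of log2 CPM from the group mean were correlated over the 12 libraries for 21 pairs, with exact permutation of libraries within groups and Benjamini-Hochberg adjustment over the 21. Of the 21 Pearson coefficients 11 were positive, with a median of 0.11. An unadjusted p under 0.05 was found in 6 pairs, and 1 pair passed after adjustment. The permutations treat the libraries of a group as exchangeable, which libraries alike in pairs may not be, and with the pairs merged 0 of 21 passed (7 units, smallest adjusted p = 0.146), although the smallest p possible, 0.00694, leaves little room to pass. The coefficients are therefore given as description.

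That pair was *Lcn2* and *Hp*, which ran in opposite directions (r = −0.84, permutation p = 0.00111, adjusted p = 0.0233; rho = −0.78, p = 0.00538, adjusted p = 0.0565; n = 12). Without the 2 libraries farthest from the *Lcn2* median, r was −0.81, and it was −0.88 in siNC and −0.87 in siEgr2. The *Hp* side of this relation rests on 0 to 13 counts in siEgr2, where the alike replicates 4 and 6 had the lowest *Lcn2* and the highest *Hp*. With the pairs merged r was −0.90 (permutation p = 0.0139, adjusted p = 0.146; 7 units), where a single pair could not have passed. Given the few counts of *Hp* and the alike libraries, no relation is claimed. *Lcn2* and *Ptx3* ran in the same direction (r = 0.74, permutation p = 0.00945, adjusted p = 0.0922; rho = 0.83, p = 0.00120, adjusted p = 0.0252), with r = 0.54 in siNC, 0.86 in siEgr2 and 0.57 without the 2 farthest libraries. This pair passed by rank and not by Pearson's r, and with the pairs merged r was 0.76 (permutation p = 0.0694, adjusted p = 0.292). The siEgr2 replicates 4 and 6 were the lowest for both genes.

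*Lcn2* with *A2m* (r = 0.69, permutation p = 0.0223, adjusted p = 0.117) and *Lcn2* with *Chil1* (r = 0.61, permutation p = 0.0498, adjusted p = 0.152) did not pass after adjustment. Neither did *Ptx3* with *Hp* (r = −0.78, permutation p = 0.0132, adjusted p = 0.0922), nor *A2m* with *Agt* (r = 0.56, permutation p = 0.0449, adjusted p = 0.152). *Saa3*, the gene with the lowest fold change, had no pair with an unadjusted p under 0.05, its coefficients lying between −0.58 with *Chil1* and 0.32 with *Agt*.

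**Figure D2:**
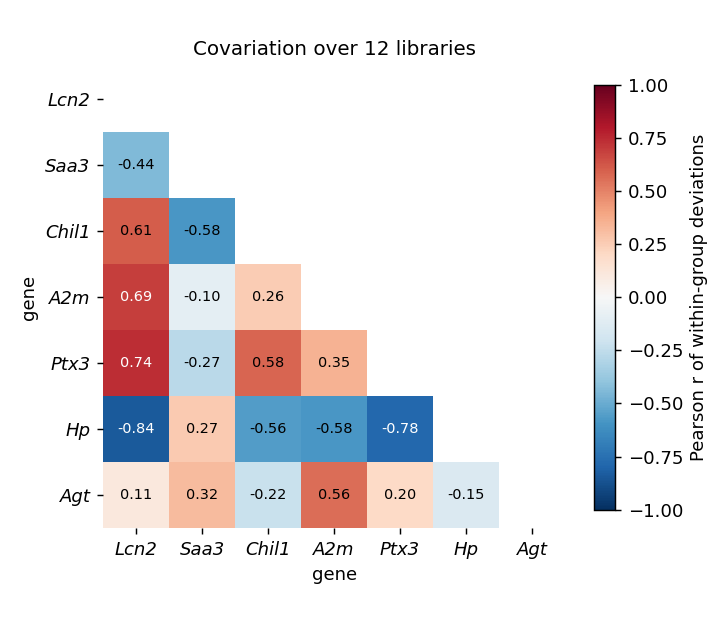
Pearson r for each pair of the 7 genes, from deviations of log2(CPM + 0.5) from the group mean over 12 libraries, with the colour scale running from −1 to 1. The coefficients run from −0.84 for *Lcn2* and *Hp* to 0.74 for *Lcn2* and *Ptx3*.

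The same deviations were set against 4 library measures, giving 28 relations. None passed after adjustment, by Pearson's r (smallest adjusted p = 0.582) or by rank (smallest adjusted p = 0.717, both by exact permutation). By r, 1 relation had an unadjusted p under 0.05, that of *Saa3* with the share of *Rn18s-rs5* (r = −0.50, permutation p = 0.0216; rho = −0.40, p = 0.181; r = −0.42 without the 2 farthest libraries). *Agt* with the total count had r = −0.70 (permutation p = 0.0624, adjusted p = 0.582; rho = −0.42, p = 0.267; r = −0.59 without the 2 farthest libraries). With summed astrocyte markers the coefficients lay between −0.60 for *Saa3* and 0.25 for *Hp*, and that of *Lcn2* was 0.02. With 12 libraries, a p above the threshold does not show that 2 measures were unrelated.

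Over the 12395 genes whose log2 CPM averaged 2 or more, those whose deviations were most like the averaged deviations of the 7 genes were *Hspa5* (r = 0.97), *A130010J15Rik* (r = 0.94) and *Gm27177* (r = 0.91), each over 12 libraries. Their log2 fold changes between groups were −0.26, 0.12 and −0.15. They were picked as the highest of 12395 coefficients, and such a choice alone can give high values over 12 libraries. Only 11 of the 21 pair coefficients of the 7 genes were positive, so the average need not describe a course that the 7 share. No test was made and no relation is claimed.

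On the mouse build GRCm38 the genes lie apart on 6 chromosomes: *Chil1* at chr1:134182176-134190181 (+), *Lcn2* at chr2:32384633-32388252 (−), *Ptx3* at chr3:66219910-66225805 (+), *A2m* at chr6:121635376-121679227 (+), *Saa3* at chr7:46711998-46715700 (−), *Hp* at chr8:109575128-109579172 (−) and *Agt* at chr8:124556534-124569706 (−). *Ptx3* lies inside *Veph1* on the opposite strand, without overlap of exons, and none of the other 6 overlapped an annotated gene.

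The RefSeq promoter table (GRCm38.p6) matched 5 of the 7 genes, the others being *A2m* and *Hp*. The 250 bases before each start were searched on both strands for C/EBP (TTGCNNAA, in 9.56% of 32851 promoters), STAT (TTCNNNGAA, 7.02%), NF-κB (GGANTTTCC, 1.07%), AP-1 (TGANTCA, 6.75%) and EGR (GCGNGGGCG, 4.70%) motifs. A C/EBP match was found in 3 of the 5, *Lcn2* (first base at −216 from the start), *Saa3* (−99) and *Ptx3* (−57), a STAT match in *Agt* (−172), and none of the 5 motifs in *Chil1*. No matches overlapped, and a match describes letters, not a bound site. The part of these motifs in the lower levels was not tested. The stretches that hold the matches follow, with the match in capitals: *Lcn2* chr2:32387937-32387966 (−), inside an annotated *Lcn2* exon, and, outside annotated exons, *Saa3* chr7:46715701-46715926 (−), *Ptx3* chr3:66219637-66219886 (+) and *Agt* chr8:124569707-124569956 (−).
Lcn2: agcccttcctgTTGCTCAAccttgcacagt
Saa3: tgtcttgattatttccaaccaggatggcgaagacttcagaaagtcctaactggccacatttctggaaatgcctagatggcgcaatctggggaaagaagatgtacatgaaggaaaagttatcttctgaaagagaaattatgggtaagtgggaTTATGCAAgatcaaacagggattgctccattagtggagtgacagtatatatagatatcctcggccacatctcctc
Ptx3: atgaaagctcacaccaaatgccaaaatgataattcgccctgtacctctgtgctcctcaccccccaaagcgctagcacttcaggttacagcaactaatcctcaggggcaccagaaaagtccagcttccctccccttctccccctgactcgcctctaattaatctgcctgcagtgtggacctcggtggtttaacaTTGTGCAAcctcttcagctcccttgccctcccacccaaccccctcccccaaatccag
Agt: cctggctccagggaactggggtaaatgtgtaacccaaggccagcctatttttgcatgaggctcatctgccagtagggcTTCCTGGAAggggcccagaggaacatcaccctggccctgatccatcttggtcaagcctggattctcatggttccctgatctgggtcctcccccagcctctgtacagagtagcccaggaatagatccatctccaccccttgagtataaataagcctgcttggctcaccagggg

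Genes around the 7 were taken from lists that leave the 7 out. Of 300 such genes 207 were tested, and 60 were called, 57 lower and 3 higher in siEgr2 (29.0%, against 7.72% of all genes), with a median log2 fold change of −0.28 beside 0.00 over all genes. The lists were chosen with earlier results of these data known, so nothing particular to them is read from the counts. Some genes are shared between lists and are counted again in each list below.

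Of 37 other acute-phase plasma proteins 14 were tested and 4 fell, with a list median of −0.51: *C3*, the central complement component (log2 fold change −1.63 ± 0.10), *Cp*, the copper carrier ceruloplasmin (−1.20 ± 0.04), *Lbp*, which binds lipopolysaccharide (−1.15 ± 0.13), and *Itih3* (−0.78 ± 0.11). *Serpina3n*, the most abundant of them, was at 1822 ± 27.3 CPM in siNC and 1765 ± 78.9 CPM in siEgr2 and was not called. Of the 37, 10 had 0 counts in all libraries, *Crp*, *Apcs* and *Orm1* among them.

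Of 12 other pan-reactive astrocyte genes 9 fell, *Steap4*, a metalloreductase (−2.08 ± 0.07), *Cxcl10* (−1.64 ± 0.23) and *Timp1* (−1.17 ± 0.14) among them. Of 12 tested genes of the neuroinflammatory (A1) panel 3 fell (*C3*, *Gbp2* and *Srgn*), and of 11 tested other genes of the ischaemia (A2) panel 6 fell, led by *Tgm1* (−1.79 ± 0.09), while *Emp1* rose (1.61 ± 0.09). Relatives of the 7 held 2 called genes of 8 tested, *Nptx2* (−1.01 ± 0.22) and *Cd109* (−0.73 ± 0.08). *Apod*, the most abundant relative (−0.29 ± 0.18), was not called. Receptors and partners held 3 of 22, *Tlr2*, a receptor of serum amyloid A (−1.85 ± 0.20), *Lrp2*, the lipocalin 2 receptor megalin (−0.88 ± 0.18; not called with alike libraries merged), and *Hmox1*, which degrades haem (−0.55 ± 0.09; not called without siNC replicate 3 or without siNC replicate 6). *Lrp1*, the most abundant receptor or partner (−0.28 ± 0.05), was not called.

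Among the cytokines and receptors that induce acute-phase genes 8 of 16 tested fell, with *Lif* (−1.32 ± 0.24), *Clcf1* (−1.31 ± 0.17) and *Il6ra* (−1.04 ± 0.12) as examples. *Il6st*, the most abundant of them, was at 272 CPM in siNC and 291 CPM in siEgr2 (0.10 ± 0.14) and was not called. *Il6* was not tested, with 122 counts in siNC and 9 in siEgr2, which are raw counts not corrected for the lower totals of siEgr2. Of 32 transducing kinases, factors and inhibitors 8 fell, among them *Nfkbiz* (−0.94 ± 0.08) and *Nfkbia* (−0.89 ± 0.07), whereas *Stat3*, the most abundant, had a log2 fold change of −0.13 ± 0.04 and was not called. Of 13 tested glucocorticoid-responsive genes 4 fell: *Mt2*, *Mt1* and *Glul*, and *Pdk4*, named after its value was seen. The other genes of this list were not called, and the list median was −0.23. By edgeR 6 of the 13 had an adjusted p under 0.05, of which 5 were lower and the other was higher. A change in the response to glucocorticoids was not tested.

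**Figure D3:**
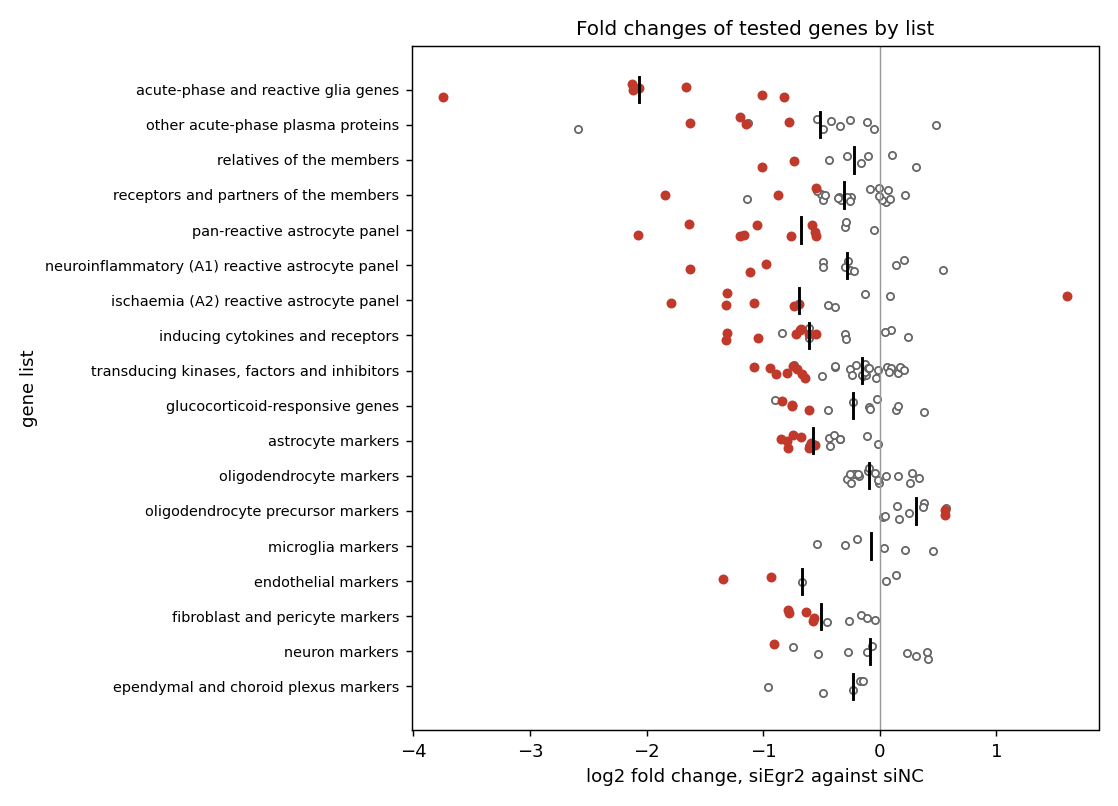
Log2 fold change (siEgr2 against siNC) of every tested gene in each list, with called genes filled, other genes open and a bar at the list median, and points spread vertically for legibility. The bar of the 7 genes stands farthest to the left, as their choice on this contrast sets, and *Emp1* (1.61) is the called gene farthest to the right.

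Markers of cell types were summed in each library and compared with two-sided exact permutation tests, adjusted over 9 lists. Oligodendrocyte markers, all 17 tested, were present as the label states, at 12634 to 14078 CPM in siNC and 12653 to 13679 CPM in siEgr2 (log2 difference −0.02, permutation p = 0.632, adjusted p = 0.711). With scaling by the total alone the sum differed by −0.20 and passed (adjusted p = 0.00487). By edgeR 0 of the 17 were called, with 8 at an adjusted p under 0.05 and 12 at an unadjusted p under 0.05, and DESeq2 and limma-voom called 0 as well. Precursor markers, all 10 tested and led by *Ptprz1*, were at 3452 to 3860 CPM in siNC and 4290 to 4571 CPM in siEgr2 (log2 difference 0.28), with *Pdgfra* and *Cspg4* called higher. With scaling by the total alone *Pdgfra* (0.37) and *Cspg4* (0.38) were not called, and the sum did not pass (adjusted p = 0.0668).

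Astrocyte markers, all 16 tested, were also present. Their sums in siNC replicates 1 to 6 were 10242, 9494, 9774, 9964, 10229 and 9910 CPM, and in siEgr2 6642, 6769, 6106, 6585, 6496 and 6844 CPM (log2 difference −0.60). The most abundant, *Gfap*, was at 4777 CPM in siNC and 3242 CPM in siEgr2, and 8 of the 16 fell, by no more than 0.85 on the log2 scale (*Slc1a3*). For astrocyte and for precursor markers the permutation p was 0.00216, the smallest that 924 assignments can give, with an adjusted p of 0.00487 and 6 of 6 siEgr2 libraries outside the siNC range. With alike libraries merged 0 of the 9 lists passed, the smallest p that 35 assignments can give being 0.0286 (smallest adjusted p = 0.0857). The part of astrocyte content in the lower levels of the 7 genes was not tested.

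*Lcn2*, *Hp*, *Chil1* and *Ptx3* are also genes of neutrophils or other myeloid cells. Microglia markers were at 28.4 to 35.9 CPM in siNC and 25.1 to 36.3 CPM in siEgr2 (log2 difference −0.20, permutation p = 0.0541, adjusted p = 0.0812; with scaling by the total alone −0.39, adjusted p = 0.00974), with 6 of 16 tested, 0 called by edgeR, DESeq2 or limma-voom, 0 at an unadjusted p under 0.05, and *Aif1*, *Itgam*, *Siglech* and *Fcrls* at 0 in all libraries. Of 13 neutrophil and monocyte markers 0 passed the filter, *Ly6g*, *Csf3r* and *Ly6c2* were at 0, and the sum was at 0.116 to 0.410 CPM in siNC and 0 to 8.87 CPM in siEgr2 (permutation p = 0.931, adjusted p = 0.931). The high library was siEgr2 replicate 2, with 35 counts of *S100a8* and 38 of *S100a9*. *Lcn2* was at 139 CPM in that library, inside its group, and its log2 fold change without it was −2.12.

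Endothelial markers (5 of 9 tested, *Kdr* the most abundant, *Cldn5* at 0) were at 52.5 to 63.7 CPM in siNC and 39.2 to 51.7 CPM in siEgr2 (log2 difference −0.31, permutation p = 0.00216, adjusted p = 0.00487), with *Slco1a4* and, named after its value was seen, *Flt1* called lower. The lower sum follows *Slco1a4*, at 24.3 CPM in siNC and 12.7 CPM in siEgr2, whereas *Kdr* was at 25.6 and 28.2 CPM and not called. Fibroblast and pericyte markers (10 of 11 tested, 5 called lower, *Col1a1* the most abundant) were at 1043 to 1590 CPM in siNC and 1000.3 to 1177 CPM in siEgr2 (log2 difference −0.27, permutation p = 0.0152, adjusted p = 0.0273). Ependymal and choroid plexus markers (5 of 8 tested, 0 called) were at 60.5 to 80.2 CPM in siNC and 46.9 to 58.8 CPM in siEgr2 (log2 difference −0.48, permutation p = 0.00216, adjusted p = 0.00487), nearly all of it *Foxj1* (69.2 CPM in siNC and 49.4 CPM in siEgr2). *Foxj1* missed the fold change threshold alone (−0.48 ± 0.07, adjusted p = 0.000116) and was called in 3 of 12 fits without 1 library and in 2 of 11 other alternatives. Neuron markers (10 of 12 tested, 1 called lower, list median −0.087) were at 421 to 675 CPM in siNC and 407 to 648 CPM in siEgr2 (log2 difference 0.10, permutation p = 0.556, adjusted p = 0.711), with *Map2* the most abundant (308 CPM in siNC and 362 CPM in siEgr2). Both the sum and *Map2* varied within the groups, and leaving out 1 library at a time gave 0.10 to 0.45 for the log2 fold change of *Map2*, in place of 0.23. The part of these cell types was not tested either.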

How the data were processed

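RNA of 6 siNC and 6 siEgr2 libraries was analysed from the counts per gene deposited by the authors, with mm10 as the build in the submitters' processing notes. The aligner, the counting program, the annotation and the strand setting are not given in the sources used here. A row with neither name nor counts was left out. Genes were kept by edgeR's filterByExpr (minimum count 10), scaled by TMM and tested with edgeR's quasi-likelihood test (edgeR 4.0.16, limma 3.58.1, R 4.3.3), with Benjamini-Hochberg adjustment over 16600 genes. DESeq2 1.42.0 and limma-voom were alternatives. Correlations used log2(CPM + 0.5), and 0.5 CPM was added to the neutrophil and monocyte sum, which was 0 in 3 libraries. Besides the 7 genes and *Egr2*, the genes named were taken from the most abundant of each list and up to 5 called genes with the largest fold changes among those averaging a log2 CPM of 1 or more in separate groups, plus the 3 genes most like the 7; others are counted, and 2 genes are not reported here. The members and lists were chosen with earlier results of these data known. Scripts were tested on simulated data.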

Additional observations from a re-analysis of the deposited data

Results flagged for a closer look

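Values in which 1 library lay far from the other 5 of its group were looked for in 146 groups, and 12 were found; chance gives about 1 in 20 groups, or 7.3 here. Library siNC replicate 2 accounted for 7 of the 12. Its *Saa3* level was 69.0 CPM against 42.7 to 51.1 CPM, its summed neuron markers 675 CPM against 421 to 432 CPM, and its *Map2* 523 CPM against 251 to 277 CPM. It was low for *Gbp2* (24.9 CPM against 31.2 to 33.6 CPM), *Mt2* (482 CPM against 544 to 567 CPM), *Mlc1* (454 CPM against 499 to 516 CPM) and *Aldh1l1* (178 CPM against 216 to 235 CPM). Library siNC replicate 6 had a total count of 39383014 against 28682946 to 32460116, and *Il1r1* at 29.0 CPM against 30.2 to 30.9 CPM. *Il6ra* in siNC replicate 4 was at 7.96 CPM against 9.38 to 10.1 CPM. In siEgr2, summed microglia markers were at 36.3 CPM in replicate 3 against 25.1 to 29.2 CPM and summed neutrophil and monocyte markers at 8.87 CPM in replicate 2 against 0 to 0.371 CPM.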

How the results depend on the processing

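All 7 genes had negative log2 fold changes under each alternative in which they were tested. *Hp* could not be tested with at least 50 counts in 6 libraries or after thinning. With scaling by the total alone, *Lcn2* was at −2.30, *Chil1* at −2.31, *A2m* at −1.0 and *Egr2* at −0.70, beside a shift of the median of all genes to −0.18. With limma-voom *Hp* was at −2.76. Leaving out 1 library at a time gave −2.17 to −2.08 for *Lcn2*, −3.90 to −3.63 for *Saa3*, −2.20 to −2.08 for *Chil1*, −0.84 to −0.79 for *A2m*, −1.71 to −1.61 for *Ptx3*, −2.67 to −1.78 for *Hp* (the lowest without siEgr2 replicate 6) and −1.22 to −0.88 for *Agt*. The number of called genes was 1974 with scaling by the total alone (88.0% lower, against 65.9%), 3300 without a fold change threshold and 373 with a log2 threshold of 1. The other lists held 59 to 85 called genes over the alternatives. With scaling by the total alone, the summed level of oligodendrocyte markers differed by −0.20 (exact permutation, adjusted p = 0.00487), of precursor markers by 0.093 (adjusted p = 0.0668), of microglia markers by −0.39 (adjusted p = 0.00974) and of neuron markers by −0.083, opposite in sign, as were *Il6st* (−0.083), *Ptprz1* (−0.031) and *Kdr* (−0.047), none of them called. The cause of these shifts was not tested beyond the scaling itself. The numbers of the replicates did not pair the libraries: same-numbered deviations correlated at −0.04 to 0.04, and 2 of 6 libraries correlated best with their own number. With a replicate block 1124 genes were called, and the 7 genes ran from −3.75 for *Saa3* to −0.82 for *A2m*. With alike libraries merged, chosen after seeing the data, 971 genes were called, 6 of the 7 among them and not *Hp* (−2.15), and summed astrocyte markers differed by −0.60, precursor markers by 0.27, endothelial markers by −0.32, fibroblast and pericyte markers by −0.28 and ependymal and choroid plexus markers by −0.46, none of which passed any more, and 0 member pairs passed; with 35 assignments and 144 permutations the smallest p possible (0.0286 and 0.00694) left little room to pass. The only pair that passed otherwise by Pearson's r, *Lcn2* and *Hp* (by rank it did not pass), was the same at pseudocounts of 1 and 0.1 CPM and with scaling by the total alone. Depth limits *Hp* and *Agt* most, with up to 13 and 40 counts in siEgr2.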
